A study of Mus musculus with 6 samples.

Results

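The mitochondrial genome of the mouse holds 37 genes, and all 37 were found among the 55450 genes of the deposited tables by their position on chromosome M in GENCODE vM21. They comprise 13 mRNAs, 2 rRNAs and 22 tRNAs, and these RNA classes were examined separately. The cells were naive CD4+ T cells of wildtype mice aged 8 to 12 weeks (strain not given in the sources used here), activated with anti-CD3ε and anti-CD28 and driven toward the Th17 state, an IL-17-producing helper fate, with TGF-β and IL-6. At 24 h they were transduced with an MSCV retrovirus, a vector that integrates into dividing cells, and they were collected at 72 h. One group of 2 libraries received ADAR2_WT, an RNA-editing enzyme that turns adenosine into inosine within double-stranded stretches of RNA. A second group of 2 received ADAR2_E396A, its enzymatically dead form. The third group of 2 received the empty MSCV vector. Both groups of ADAR2 cells and the vector group came from the same 2 donor mice, A and B, with 1 library from each mouse in each group; which library belongs to which mouse was inferred from the authors' deposited test scores. No sort for transduced cells is described. The design asks what ADAR2, and ADAR2 without its activity, does to the transcriptome relative to vector-only cells of the same donor. Editing itself was not measured here.

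The libraries held between 16496328 and 21897166 reads assigned to genes. Adarb1, the gene of ADAR2, had 18422 and 18999 normalized counts in the ADAR2 WT libraries and 15644 and 14920 in the ADAR2 E396A libraries, against 3672 and 3333 in the empty-vector libraries. Normalized counts are reads scaled between libraries by median-of-ratios factors. The CD4 T cell markers Cd4, Cd3e, Cd3g and Trac were detected in every library, with summed levels of 25028 to 35586 normalized counts. Their fitted log2 fold changes of ADAR2 WT over empty vector were -0.20, -0.21, -0.30 and -0.15, and none passed the test in any comparison. The 6 markers of CD8 and NK cells summed to 432 and 517 normalized counts in the ADAR2 WT libraries and 960 and 1500 in the ADAR2 E396A libraries, against 1384 and 1280 in the empty-vector libraries. Of these, 4 were tested, and Klrd1 and Klrc1 were lower with ADAR2 WT than with empty vector (log2 fold changes -2.39 and -1.88, limma adjusted p = 0.0248 and 0.00749). The tested CD8 genes did not pass in that comparison, Cd8a at -0.46 and Cd8b1 at 0.21 (limma adjusted p = 0.749 and 0.590). Cd8b1 had 158 and 142 normalized counts in the ADAR2 WT libraries against 150 and 112 in the empty-vector libraries. The NK marker Ncr1 was at 0 in all 6 libraries. The Th17 markers Il17a, Il17f, Rora, Il23r and Ccr6 summed to 23958 and 47388 normalized counts in the ADAR2 WT libraries and 15793 and 62075 in the ADAR2 E396A libraries, against 18764 and 34183 in the empty-vector libraries. The members went in both directions with ADAR2 WT over empty vector. Il17a and Il17f had log2 fold changes of 1.19 and 0.57, and Rora, Il23r and Ccr6 of -0.37, -0.24 and -0.53. None of the 5 passed the test in any comparison. The marker lists of B, myeloid, erythroid and stromal cells each summed to at most 65.4 normalized counts in any library. Whether the CD8 and NK markers have a part in the mitochondrial values below was not tested. In bulk RNA, fewer cells of a type and less RNA per cell cannot be told apart, and neither can fewer mitochondrial genomes and less RNA per genome.

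Mitochondrial DNA is transcribed from both strands into long precursors that carry rRNAs, mRNAs and tRNAs together. The tRNAs, which sit between most of the other genes, are cut out of the precursor, and the rRNAs and mRNAs are released by the same cuts. After release each RNA is stabilised, modified and degraded on its own account, so levels of genes in 1 precursor can differ widely. The mRNAs encode core subunits of respiratory complexes I, III and IV and of ATP synthase, and the rRNAs and tRNAs serve the ribosomes that translate them inside the organelle. Activated T cells enlarge their mitochondrial network as they leave the naive state.

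With ADAR2 WT, both mitochondrial rRNAs and 3 of the 8 mRNAs that could be tested rose above empty vector, by between 1.45-fold and 1.86-fold. mt-Co1, the most abundant mRNA, did not pass the test. Of 5 tRNAs tested, 1 rose, mt-Tp, the tRNA for proline, and the other 4 had lower fitted values that did not pass. With ADAR2 E396A no mitochondrial gene passed. In the comparison of ADAR2 WT with empty vector 122 of 14958 genes passed, 0.816%, of which 66 (0.441%) were higher. Passing means an adjusted p under 0.05 in limma with Benjamini-Hochberg adjustment over all 14958 genes, with donor as a term. The median log2 fold change was 0.73 for the 2 rRNAs, 0.49 for the 8 tested mRNAs and -0.63 for the 5 tested tRNAs, against -0.00 for all genes tested. These calls rested on both ADAR2 WT libraries and on the pairing by donor: without either ADAR2 WT library, without the donor term, or without the mean-variance trend of the limma fit, no mitochondrial gene passed. In those fits few genes of any kind did: 0.00633% of all genes without the ADAR2 WT library of donor A, 0.038% without that of donor B, 0.0134% without the donor term and 0% without the trend.

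The rRNAs carried most mitochondrial reads although the libraries had been depleted of ribosomal RNA. mt-Rnr1 (ENSMUSG00000064337.1, chrM:70-1024, plus strand, GRCm38) encodes the rRNA of the small mitochondrial ribosomal subunit. It had 6435 and 4924 normalized counts in ADAR2 WT cells, 4963 and 3752 in ADAR2 E396A cells, and 3359 and 2723 in empty-vector cells, each pair given for donor A and then donor B. All ADAR2 libraries lay above both empty-vector libraries, and within each donor the order was ADAR2 WT, ADAR2 E396A, empty vector. The rise with ADAR2 WT was 0.90 on the log2 scale (SE 0.06, limma adjusted p = 0.0017), 1.86-fold, and it was 0.94 in donor A and 0.85 in donor B. mt-Rnr2 (ENSMUSG00000064339.1, chrM:1094-2675), the rRNA of the large subunit, had 57683 and 47936 normalized counts in ADAR2 WT cells, 52346 and 41827 in ADAR2 E396A cells, and 39009 and 32655 in empty-vector cells. Its groups were ordered in the same way within each donor, and the ADAR2 WT libraries did not overlap the empty-vector libraries. It rose by 0.56 (SE 0.06, limma adjusted p = 0.0142), 1.47-fold, with 0.56 in donor A and 0.55 in donor B.

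As a share of all reads, mitochondrial rRNA was 0.328% and 0.278% in ADAR2 WT cells, 0.299% and 0.239% in ADAR2 E396A cells, and 0.213% and 0.185% in empty-vector cells. The 95% Wilson interval of the highest share ran from 0.326% to 0.331% and that of the lowest from 0.183% to 0.187%, counting error only. The ratio of mt-Rnr2 to mt-Rnr1 per length was 5.41 and 5.88 in ADAR2 WT cells, 6.37 and 6.73 in ADAR2 E396A cells, and 7.01 and 7.24 in empty-vector cells. The 3 groups did not overlap in this ratio, so the small-subunit rRNA differed more between groups than the large-subunit rRNA that lies next to it in the precursor. The log2 fold changes of mt-Rnr1 and mt-Rnr2 above carry that difference, and no separate test was made of the ratio. The depletion removes cytosolic ribosomal RNA, and how far it removes the mitochondrial kind is not given in the sources used here. Reads of Gm26917, a gene on chromosome 17 with ribosomal RNA sequence, serve as a measure of what the depletion left. They made up 9.01% and 8.68% of reads in ADAR2 WT cells, 9.57% and 8.72% in ADAR2 E396A cells, and 10.5% and 9.85% in empty-vector cells, higher in both empty-vector libraries than in the other 4. Its log2 fold change with ADAR2 WT was -0.22 (limma adjusted p = 0.438), and its part in the rRNA result was not tested.

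**Figure D1:**
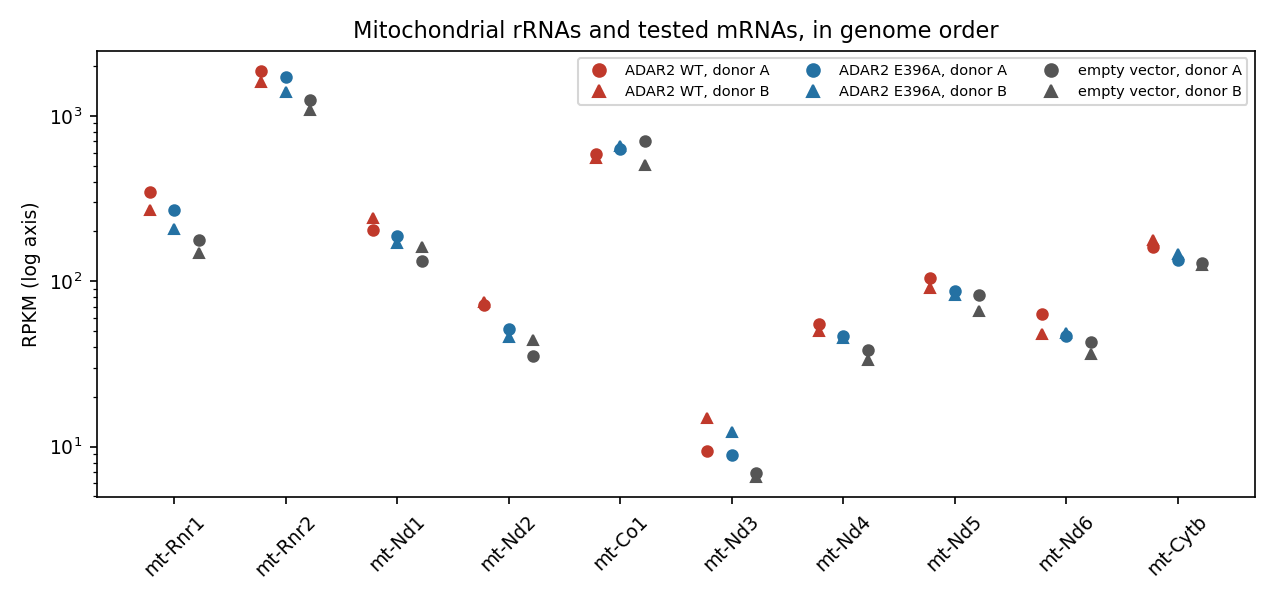
RPKM (reads scaled by gene length and library size, log axis) of the 2 mitochondrial rRNAs and the 8 tested mRNAs, in genome order from left to right; each point is 1 library, coloured by construct, with circles for donor A and triangles for donor B. Points for ADAR2 WT lie above those for empty vector in every gene but mt-Co1, and levels run from 1866 for mt-Rnr2 to 6.57 for mt-Nd3.

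The levels of the mRNAs spanned a wide range within every library. Levels per length are given in RPKM, reads scaled by gene length and library size, as mean ± SD of the empty-vector libraries (n = 2). mt-Co1 stood at 604 ± 141, mt-Nd1 at 147 ± 19.7 and mt-Cytb at 127 ± 2.93. mt-Nd5 followed at 74.4 ± 12.0, then mt-Nd2 at 39.7 ± 6.40, mt-Nd6 at 39.7 ± 4.63, mt-Nd4 at 35.9 ± 3.83 and mt-Nd3 at 6.75 ± 0.25. The values of mt-Nd2, mt-Nd6 and mt-Nd4 overlapped, mt-Nd1 lay above mt-Cytb in all 6 libraries, mt-Co1 lay above all other mRNAs, and mt-Nd3 lay below the other 7. For comparison the rRNAs stood at 1159 ± 115 for mt-Rnr2 and 163 ± 19.8 for mt-Rnr1. All 8 of these mRNAs except mt-Nd6 are read from the same strand as the rRNAs.

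The other 5 mRNAs were nearly without reads. mt-Co2 and mt-Co3, subunits of cytochrome c oxidase, mt-Atp8 and mt-Atp6, subunits of ATP synthase, and mt-Nd4l, a subunit of complex I, had between 0 and 12 reads in any library, and none passed the filter on low counts. These genes lie together, with mt-Nd3, between mt-Co1 and mt-Nd4. A segment of 4663 bases on chromosome 1 (chr1:24611535-24616197) holds 7 annotated pseudogenes that copy this stretch of the mitochondrial genome in the same order, over chrM:6390-11042. A blastn search of the 37 genes against the other GENCODE vM21 transcripts found runs of at least 40 identical bases covering 100% of mt-Co2, 99.6% of mt-Atp6, 99.9% of mt-Co3, 99.0% of mt-Nd4l and 98.3% of mt-Nd3. For mt-Atp8 they covered 21.1%, but the unannotated bases between the pseudogenes were not searched. They also covered 63.6% of mt-Nd4, 80.8% of mt-Co1, 24.9% of mt-Nd5 and 17.2% of mt-Nd2, while mt-Nd1, mt-Nd6, mt-Cytb and both rRNAs had no copy at 95% identity. mt-Co1 had 14162 to 22183 reads. Its full-length copy, Gm13340 on chromosome 2, was identical at 97.6% of 1545 bases and held 63 to 85 reads, while its exact stretches on chromosome 1 belong to Gm29216, which matched over 483 bases and differed at 1.

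Why these copies matter for reading the table is visible in the first 90 bases of 2 genes, shown beside the pseudogene of each (GENCODE vM21 transcripts, GRCm38). The mt-Co2 stretch (chrM:7013-7102, plus strand) and its copy Gm28661 (chr1:24615476-24615565, minus strand) have the same letters, so a read inside them has no unique place. The mt-Nd3 stretch (chrM:9459-9548, plus strand) and its copy Gm28438 (chr1:24613030-24613119, minus strand) differ at 1 base, which is in capitals. All 4 are written 5′ to 3′.
mt-Co2: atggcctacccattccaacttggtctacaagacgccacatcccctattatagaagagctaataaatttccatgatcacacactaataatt
Gm28661: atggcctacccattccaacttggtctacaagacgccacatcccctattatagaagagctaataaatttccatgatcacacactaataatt
mt-Nd3: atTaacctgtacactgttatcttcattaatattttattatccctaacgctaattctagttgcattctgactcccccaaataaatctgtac
Gm28438: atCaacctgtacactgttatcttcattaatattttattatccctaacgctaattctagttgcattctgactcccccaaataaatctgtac
Over their full alignments mt-Co2 and Gm28661 were identical at 681 of 681 bases, and mt-Nd3 and Gm28438 differed at 1 of 345. mt-Nd3 had 45 to 94 reads per library and Gm28438 11 to 32, whereas mt-Co2 had 0 to 4 and Gm28661 15 to 24. How the authors counted reads with more than 1 place is not given in the sources used here, nor is the read length. Values of mt-Co2, mt-Co3, mt-Atp6, mt-Atp8, mt-Nd4l and mt-Nd3 are therefore uncertain as levels. Those of mt-Co1, mt-Nd4, mt-Nd5 and mt-Nd2, which are copied over part of their length, are uncertain in part.

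**Figure D2:**
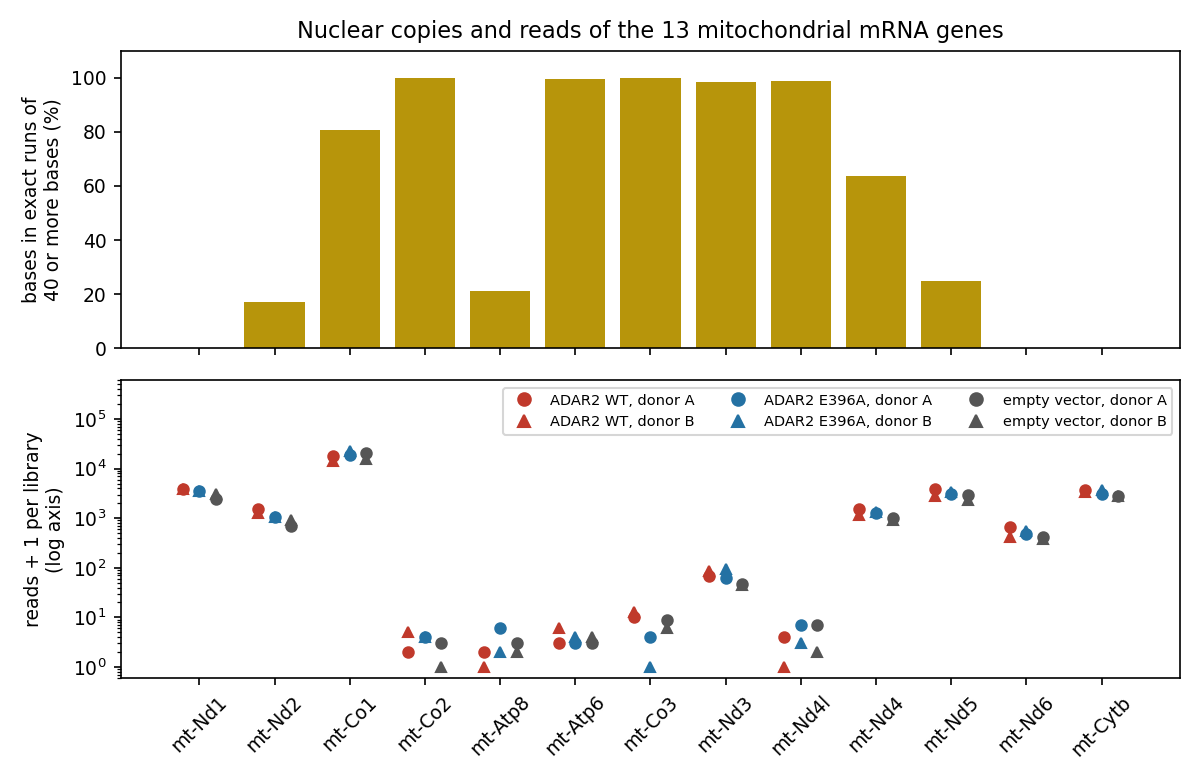
For the 13 mitochondrial mRNA genes in genome order, the upper panel gives the percentage of bases in runs of at least 40 bases identical to another annotated transcript, and the lower panel the reads of each library plus 1 (log axis), with circles for donor A and triangles for donor B. The 5 genes with at most 12 reads lie in 1 stretch with mt-Nd3 among them, 4 of them are copied over 99.0% to 100% of their length and mt-Atp8 over 21.1%, and mt-Nd3, copied over 98.3%, kept 45 to 94 reads.

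Of the 8 tested mRNAs, 7 were higher in both ADAR2 WT libraries than in both empty-vector libraries, a pattern seen in 18.7% of all genes tested in that direction, and 7 had an unadjusted p under 0.05, as did 14.1% of all genes. The 3 that passed encode subunits of complex I, the entry point of electrons from NADH, as do 6 of the 8 tested mRNAs. mt-Nd2 (ENSMUSG00000064345.1, chrM:3914-4951) had 1457 and 1479 normalized counts in ADAR2 WT cells, 1028 and 913 in ADAR2 E396A cells, and 727 and 880 in empty-vector cells. The ADAR2 WT libraries agreed closely with each other and stood apart from the other 4. It rose by 0.88 with ADAR2 WT (SE 0.11, limma adjusted p = 0.0193), 1.83-fold, the largest fitted rise among the mRNAs.

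mt-Nd1 (ENSMUSG00000064341.1, chrM:2751-3707), which follows the rRNAs in the precursor, had 3814 and 4384 normalized counts in ADAR2 WT cells, 3431 and 3124 in ADAR2 E396A cells, and 2530 and 2948 in empty-vector cells. The 3 groups did not overlap, although the ADAR2 E396A library of donor B lay close to the empty-vector library of the same donor. It rose by 0.58 with ADAR2 WT (SE 0.09, limma adjusted p = 0.0371). It no longer passed once the vector library of donor A was left out, when 0.417% of all genes passed. mt-Nd4 (ENSMUSG00000064363.1, chrM:10167-11544) had 1477 and 1310 normalized counts in ADAR2 WT cells, 1231 and 1187 in ADAR2 E396A cells, and 1057 and 876 in empty-vector cells. Its groups did not overlap either, and it rose by 0.53 (SE 0.08, limma adjusted p = 0.0371), 1.45-fold.

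The remaining complex I subunits did not pass. mt-Nd5 had 3732 and 3170.5 normalized counts in ADAR2 WT cells, 3064 and 2883 in ADAR2 E396A cells, and 3007 and 2304 in empty-vector cells (log2 fold change of ADAR2 WT over empty vector 0.39, SE 0.08, limma adjusted p = 0.0851). mt-Nd3 had 64.1 and 99.2 normalized counts in ADAR2 WT cells, 59.1 and 81.9 in ADAR2 E396A cells, and 47.9 and 43.8 in empty-vector cells. Its log2 fold change of 0.79 had an SE of 0.24 (limma adjusted p = 0.208) and was 0.41 in donor A and 1.16 in donor B.

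mt-Nd6 (ENSMUSG00000064368.1, chrM:13552-14070, minus strand) encodes the only mRNA of the other strand. It had 644 and 471 normalized counts in ADAR2 WT cells, 466 and 479 in ADAR2 E396A cells, and 444 and 362 in empty-vector cells (log2 fold change of ADAR2 WT over empty vector 0.46, SE 0.13, limma adjusted p = 0.166). Its values per length ran at 0.606 and 0.522 of those of the neighbouring mt-Nd5 in ADAR2 WT cells, 0.535 and 0.584 in ADAR2 E396A cells, and 0.519 and 0.553 in empty-vector cells. The 3 groups overlapped in this ratio, and the balance between the mRNA of one strand and its neighbour on the other showed no ordering by construct. The strand setting of the count is not given in the sources used here, and if counting ignored strand, reads of mt-Nd6 could come from either strand.

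Outside complex I, 2 mRNAs could be tested. mt-Cytb (ENSMUSG00000064370.1, chrM:14145-15288), the cytochrome b of complex III, had 3581 and 3852 normalized counts in ADAR2 WT cells, 2968 and 3198 in ADAR2 E396A cells, and 2927 and 2730 in empty-vector cells. The ADAR2 WT libraries lay above the other 4, and the log2 fold change was 0.39 (SE 0.07, limma adjusted p = 0.0634). DESeq2 on the same reads put mt-Nd5 and mt-Cytb past the threshold in addition to the 3 mRNAs above, 5 in all, where it called 1.74% of the genes with an adjusted p. In the authors' deposited table the adjusted p-values were 0.022 for mt-Nd5 and 0.0199 for mt-Cytb. The authors' deposited table called 196 genes, 1.75% of those with an adjusted p, and its log2 fold changes run as empty vector over construct.

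mt-Co1 (ENSMUSG00000064351.1, chrM:5328-6872), the catalytic subunit of cytochrome c oxidase, showed no such ordering. It had 17760 and 16339 normalized counts in ADAR2 WT cells, 18793 and 19336 in ADAR2 E396A cells, and 21609 and 14918 in empty-vector cells. The empty-vector libraries lay at both extremes and enclosed the other 4, so the groups overlapped fully. The log2 fold change of ADAR2 WT over empty vector was -0.08 (SE 0.12, limma adjusted p = 0.82), made of -0.28 in donor A and 0.13 in donor B. Leaving out donor A's vector library gave 0.17 (limma adjusted p = 0.601), and leaving out donor B's gave -0.32, which passed (limma adjusted p = 0.0287) in a fit where 5.77% of all genes did.

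mt-Co1 held more than any other mRNA of the mitochondrial mRNA reads. Its share was 54.6% and 52.5% in ADAR2 WT cells, 60.5% and 62.0% in ADAR2 E396A cells, and 66.8% and 59.5% in empty-vector cells. Wilson 95% intervals were 51.9% to 53.1% for the lowest of these and 66.2% to 67.3% for the highest. The ADAR2 WT libraries lay below the other 4, and the ADAR2 E396A libraries lay between the 2 empty-vector libraries. With the libraries scaled by the reads of the mitochondrial mRNAs other than mt-Co1, a setting added after its values were seen, mt-Co1 passed as lower in limma, with a log2 fold change of -0.58 (SE 0.11). That scaling shifted the median of all genes to -0.50, and 65.6% of all genes were called lower on it, so mt-Co1 lay near that median. mt-Rnr1 and mt-Nd2 were still higher on it, with log2 fold changes of 0.40 (SE 0.08) and 0.38 (SE 0.11), where 0.401% of all genes were called higher. mt-Tp was also still higher, at 0.47 (SE 0.19, limma adjusted p = 0.0388), while mt-Rnr2, mt-Nd1 and mt-Nd4 were at 0.06, 0.08 and 0.03 there and did not pass. mt-Nd1, mt-Nd2 and mt-Nd4 are themselves among the mRNAs that set this scale. The tRNAs mt-Ty, mt-Tn and mt-Tc were called lower on it, as were 65.6% of all genes. They were at -1.12 (SE 0.24), -1.71 (SE 0.58) and -0.82 (SE 0.35) (limma adjusted p = 0.00108, 0.0173 and 0.0496). These calls are against 0, none of these tRNAs passed in the main fit, and no test was made against the median of -0.50.

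The sum of mitochondrial mRNA reads depended on mt-Co1. All 13 mRNAs together took 0.167% and 0.164% of reads in ADAR2 WT cells, 0.162% and 0.164% in ADAR2 E396A cells, and 0.163% and 0.131% in empty-vector cells. Only the empty-vector library of donor B stood apart in that sum. Without mt-Co1, a setting added after its values were seen, the shares were 0.0757% and 0.0777% in ADAR2 WT cells. They were 0.0639% and 0.0622% in ADAR2 E396A cells and 0.0541% and 0.0530% in empty-vector cells, and the 3 groups no longer overlapped. mt-Co1 was the only tested mRNA with a negative fitted log2 fold change of ADAR2 WT over empty vector. Leaving it out kept only tested mRNAs with positive ones, so this separation is not an independent result. The ratio of rRNA to mRNA reads was 1.97 and 1.70 in ADAR2 WT cells, 1.85 and 1.46 in ADAR2 E396A cells, and 1.31 and 1.41 in empty-vector cells. With mt-Co1 left out it was 4.34 and 3.57 in ADAR2 WT cells, 4.67 and 3.84 in ADAR2 E396A cells, and 3.94 and 3.48 in empty-vector cells, and the groups overlapped.

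**Figure D3:**
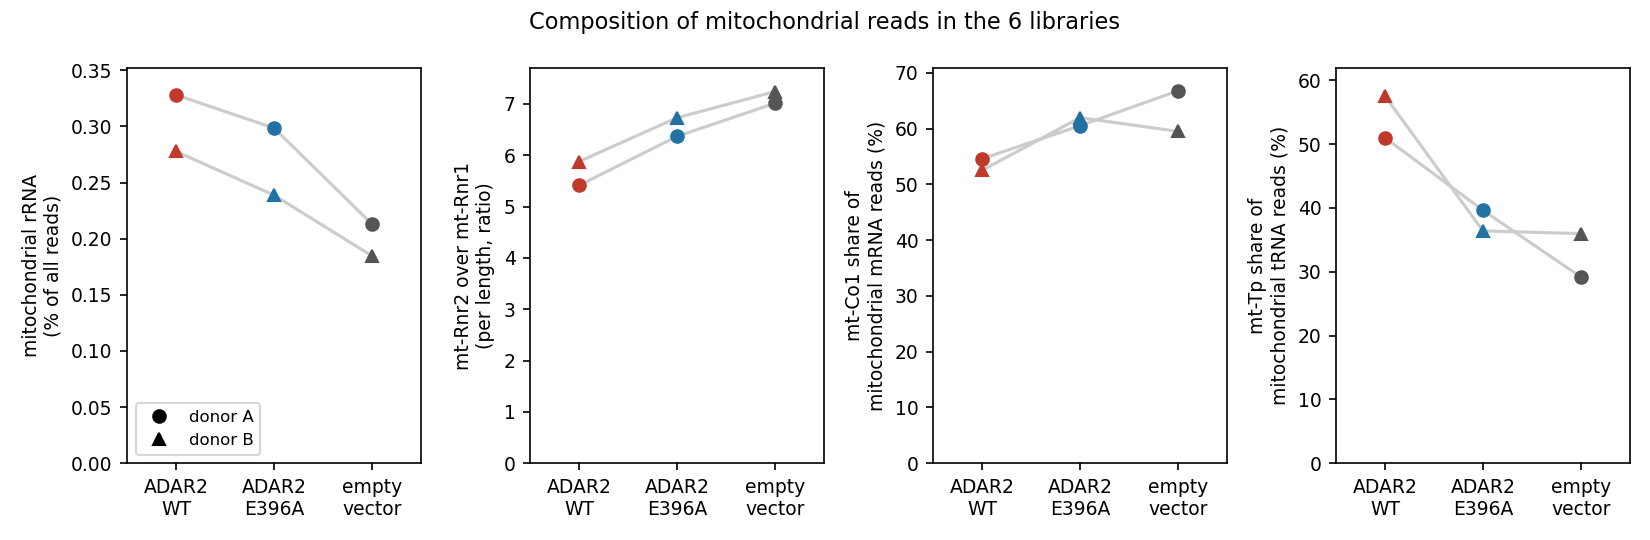
From left to right, mitochondrial rRNA as a percentage of all reads, the per-length ratio of mt-Rnr2 to mt-Rnr1, the share of mt-Co1 in mitochondrial mRNA reads and the share of mt-Tp in mitochondrial tRNA reads; each point is 1 library (circles donor A, triangles donor B) and grey lines join libraries of the same donor. In the second panel the 3 groups do not overlap (5.41 and 5.88, 6.37 and 6.73, 7.01 and 7.24), and in the right-hand panel only ADAR2 WT, at 51.0% and 57.5%, stands apart.

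The tRNAs were covered thinly, by 304 and 219 reads in ADAR2 WT cells, 270 and 283 in ADAR2 E396A cells, and 264 and 203 in empty-vector cells. Mature tRNAs are short, folded and modified, and libraries of this kind recover few of them. Of the 22 tRNA genes, 5 passed the filter on low counts, and the other 17 had at most 13 reads in any library. The tRNAs mt-Ts1, mt-Td and mt-Tk, for serine, aspartate and lysine, were at 0 in all 6 libraries, which at these depths allows up to 0.137 to 0.182 CPM (reads scaled by library size), taking 3 reads as the limit and counting error only. These 3 lie in the stretch of chromosome M spanned by the pseudogenes of chromosome 1. The search of annotated transcripts found no copy of any tRNA gene, and the unannotated bases between the pseudogenes were not searched. Of the 5 tRNA genes in that stretch, which had at most 19 reads, 3 were at 0 throughout, and of the 17 elsewhere none was. The tested tRNAs were mt-Tp, mt-Ty, mt-Tc and mt-Tn on the minus strand and mt-Tr on the plus strand. Their sequences are given as GENCODE vM21 transcripts, GRCm38, 5′ to 3′, because the tRNA results rest on these 5 genes; capitals mark the anticodon, which reads the codons of proline, tyrosine, cysteine, asparagine and arginine.
mt-Tp: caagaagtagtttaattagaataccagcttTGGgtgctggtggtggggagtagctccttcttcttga
mt-Ty: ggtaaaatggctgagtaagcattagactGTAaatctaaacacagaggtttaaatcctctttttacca
mt-Tc: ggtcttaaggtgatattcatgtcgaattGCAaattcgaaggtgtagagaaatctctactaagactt
mt-Tn: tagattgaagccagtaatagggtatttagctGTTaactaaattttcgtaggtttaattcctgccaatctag
mt-Tr: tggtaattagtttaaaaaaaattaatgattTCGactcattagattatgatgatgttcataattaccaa
The genes lie at chrM:15356-15422 for mt-Tp, chrM:5260-5326 for mt-Ty, chrM:5192-5257 for mt-Tc, chrM:5089-5159 for mt-Tn and chrM:9808-9875 for mt-Tr. mt-Ty, mt-Tc and mt-Tn are thus neighbours in the cluster between mt-Nd2 and mt-Co1, and mt-Tp lies beside mt-Tt at the other end of the gene-bearing part, next to the control region. A read at a minus-strand tRNA can come from that tRNA, from its precursor or, if counting ignored strand, from the opposite precursor.

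mt-Tp had 151 and 145 normalized counts in ADAR2 WT cells, 105 and 89.8 in ADAR2 E396A cells, and 80.2 and 71.1 in empty-vector cells. The 3 groups did not overlap, and the order was the same in both donors. The rise with ADAR2 WT was 0.96 on the log2 scale (SE 0.17, limma adjusted p = 0.0486), 1.95-fold, and it was 0.90 in donor A and 1.02 in donor B. It did not pass in DESeq2, in the authors' deposited table (adjusted p = 0.226), with donor A's vector library left out, or with the libraries scaled by all 13 mitochondrial mRNAs.

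The 3 clustered tRNAs had lower fitted values with ADAR2 WT, and none passed. mt-Ty had 45.6 and 41.5 normalized counts in ADAR2 WT cells, 64.0 and 56.7 in ADAR2 E396A cells, and 81.2 and 56.5 in empty-vector cells (log2 fold change of ADAR2 WT over empty vector -0.63, SE 0.22, limma adjusted p = 0.270). Its ADAR2 WT libraries were the lowest 2 of the 6, and in mt-Ty and mt-Tn they lay below both empty-vector libraries, as did 18.5% of all genes. mt-Tn had 2.91 and 6.92 normalized counts in ADAR2 WT cells, 8.87 and 13.9 in ADAR2 E396A cells, and 17.7 and 8.76 in empty-vector cells, so each value rests on 3 to 17 reads (log2 fold change -1.28, SE 0.59, limma adjusted p = 0.375). mt-Tc had 22.3 and 13.8 normalized counts in ADAR2 WT cells, 32.5 and 23.5 in ADAR2 E396A cells, and 29.2 and 17.5 in empty-vector cells (log2 fold change -0.35, SE 0.32, limma adjusted p = 0.670), and its groups overlapped. Together the 3 genes held 73 and 54 reads in ADAR2 WT cells, 107 and 108 in ADAR2 E396A cells, and 123 and 85 in empty-vector cells. mt-Tr had 18.4 and 4.61 normalized counts in ADAR2 WT cells, 7.88 and 8.72 in ADAR2 E396A cells, and 18.7 and 12.7 in empty-vector cells, and its ADAR2 WT libraries lay far apart.

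Within the tRNA reads, mt-Tp held 51.0% and 57.5% in ADAR2 WT cells, 39.6% and 36.4% in ADAR2 E396A cells, and 29.2% and 36.0% in empty-vector cells. The 95% Wilson intervals, which cover counting error only and treat reads as independent molecules, were 45.4% to 56.6% and 50.9% to 63.9% for the ADAR2 WT libraries, 34.0% to 45.6% and 31.0% to 42.1% for the ADAR2 E396A libraries, and 24.0% to 34.9% and 29.7% to 42.8% for the empty-vector libraries. Both ADAR2 WT libraries had a higher share than the other 4, and no test of this share across libraries was made. As a class, tRNAs took 0.00151% and 0.00133% of reads in ADAR2 WT cells, 0.00139% and 0.00129% in ADAR2 E396A cells, and 0.00138% and 0.00103% in empty-vector cells. The share of the class overlapped between groups.

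**Figure D4:**
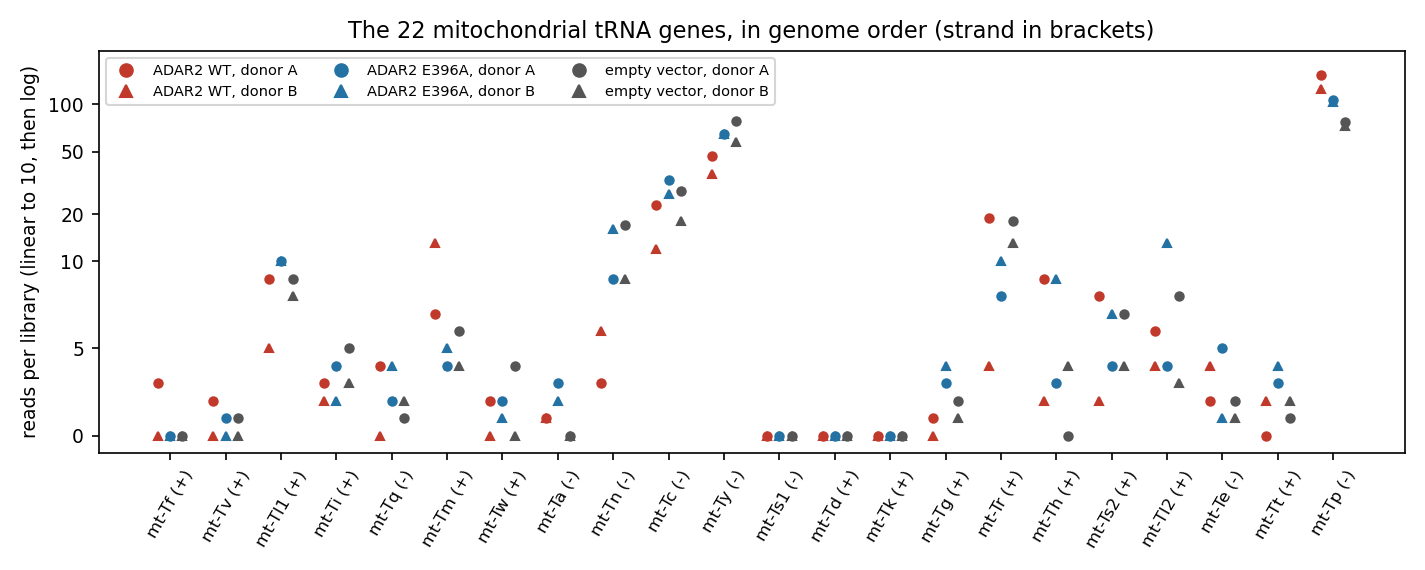
Reads of the 22 mitochondrial tRNA genes in genome order (vertical axis linear to 10 reads and logarithmic above; strand in brackets after each name), 1 point per library with ADAR2 WT left, ADAR2 E396A in the middle and empty vector right, circles for donor A and triangles for donor B. mt-Tp is the most abundant and is highest with ADAR2 WT (155 and 126 reads), mt-Ty is lowest there (47 and 36 reads), and most other genes have too few reads to be compared.

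With ADAR2 E396A, no mitochondrial gene passed against the same empty-vector libraries, in limma or in edgeR, a comparison in which 2 of 14958 genes passed (0.0134%). At an unadjusted p under 0.05, which 3.89% of all genes reached, limma counted 4 of the 8 tested mRNAs and both rRNAs but none of the 5 tRNAs, and DESeq2 called both rRNAs among 0.0468% of all genes. The log2 fold changes of ADAR2 E396A over empty vector were 0.51 for mt-Rnr1 (SE 0.06, limma adjusted p = 0.112) and 0.39 for mt-Rnr2 (SE 0.06, limma adjusted p = 0.542), with both donors on the same side. Among the mRNAs they ran from 0.09 for mt-Co1 to 0.59 for mt-Nd3, with 0.26 for mt-Nd1, 0.28 for mt-Nd2 and 0.33 for mt-Nd4. The median was 0.25 for the 8 mRNAs and 0.45 for the rRNAs, against -0.01 for all genes. In 6 of the 8 mRNAs, both rRNAs and mt-Tp the ADAR2 E396A libraries lay above the empty-vector libraries without overlap, as did 11.5% of all genes. In mt-Tr they lay below, as did 11.9%. In the authors' deposited table for ADAR2 E396A no mitochondrial gene had an adjusted p under 0.05, and the comparisons of both constructs share the empty-vector libraries there, as they do here.

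The donors differed gene by gene in this comparison. For mt-Nd2 the log2 difference of ADAR2 E396A over empty vector was 0.50 in donor A and 0.05 in donor B, and for mt-Nd1 it was 0.44 and 0.08. For mt-Nd5, mt-Nd6 and mt-Cytb the order was the reverse, with 0.03, 0.07 and 0.02 in donor A and 0.32, 0.40 and 0.23 in donor B. For mt-Nd3 and mt-Nd4 it was 0.30 and 0.22 in donor A and 0.89 and 0.44 in donor B, and for mt-Co1 it was -0.20 and 0.37. Each of these values sets 1 library against 1. When the donor B library of ADAR2 E396A was left out, 2 mRNAs and both rRNAs passed, among 0.761% of all genes, and when its donor A library was left out, both rRNAs passed, among 0.808% of all genes.

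The direct comparison of ADAR2 WT with ADAR2 E396A asks whether the active enzyme differs from the dead one at the level of these RNAs. No mitochondrial gene passed in limma or edgeR, where limma called 10 of 14958 genes, 0.0669%. At an unadjusted p under 0.05, which 12.4% of all genes reached, limma counted 5 of 8 mRNAs, both rRNAs and 1 of 5 tRNAs. DESeq2 called 1 mRNA, mt-Nd2, and 1 rRNA, mt-Rnr1 (DESeq2 adjusted p = 0.00564 and 0.00859), among 0.921% of genes with an adjusted p. The log2 fold changes of ADAR2 WT over ADAR2 E396A were 0.38 for mt-Rnr1 (SE 0.06, limma adjusted p = 0.088), 0.17 for mt-Rnr2 (SE 0.06, limma adjusted p = 0.341) and 0.60 for mt-Nd2 (SE 0.11, limma adjusted p = 0.102). For mt-Tp the value was 0.60 (SE 0.17, limma adjusted p = 0.222). In 5 of the 8 mRNAs and in mt-Tp the ADAR2 WT libraries lay above both ADAR2 E396A libraries, as did 19.4% of all genes, and in mt-Co1, mt-Ty, mt-Tc and mt-Tn they lay below both, as did 17.3%. For both rRNAs these groups overlapped when donors were pooled, though the ADAR2 WT library was higher within each donor. A rise over empty vector that passed with ADAR2 WT and not with ADAR2 E396A is therefore not shown to differ between the constructs in the main test. For mt-Rnr1 and mt-Nd2 the call depended on the test used. Adarb1 had a log2 fold change of 0.29 for ADAR2 WT over ADAR2 E396A, with SE 0.07, and did not pass (limma adjusted p = 0.161).

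**Figure D5:**
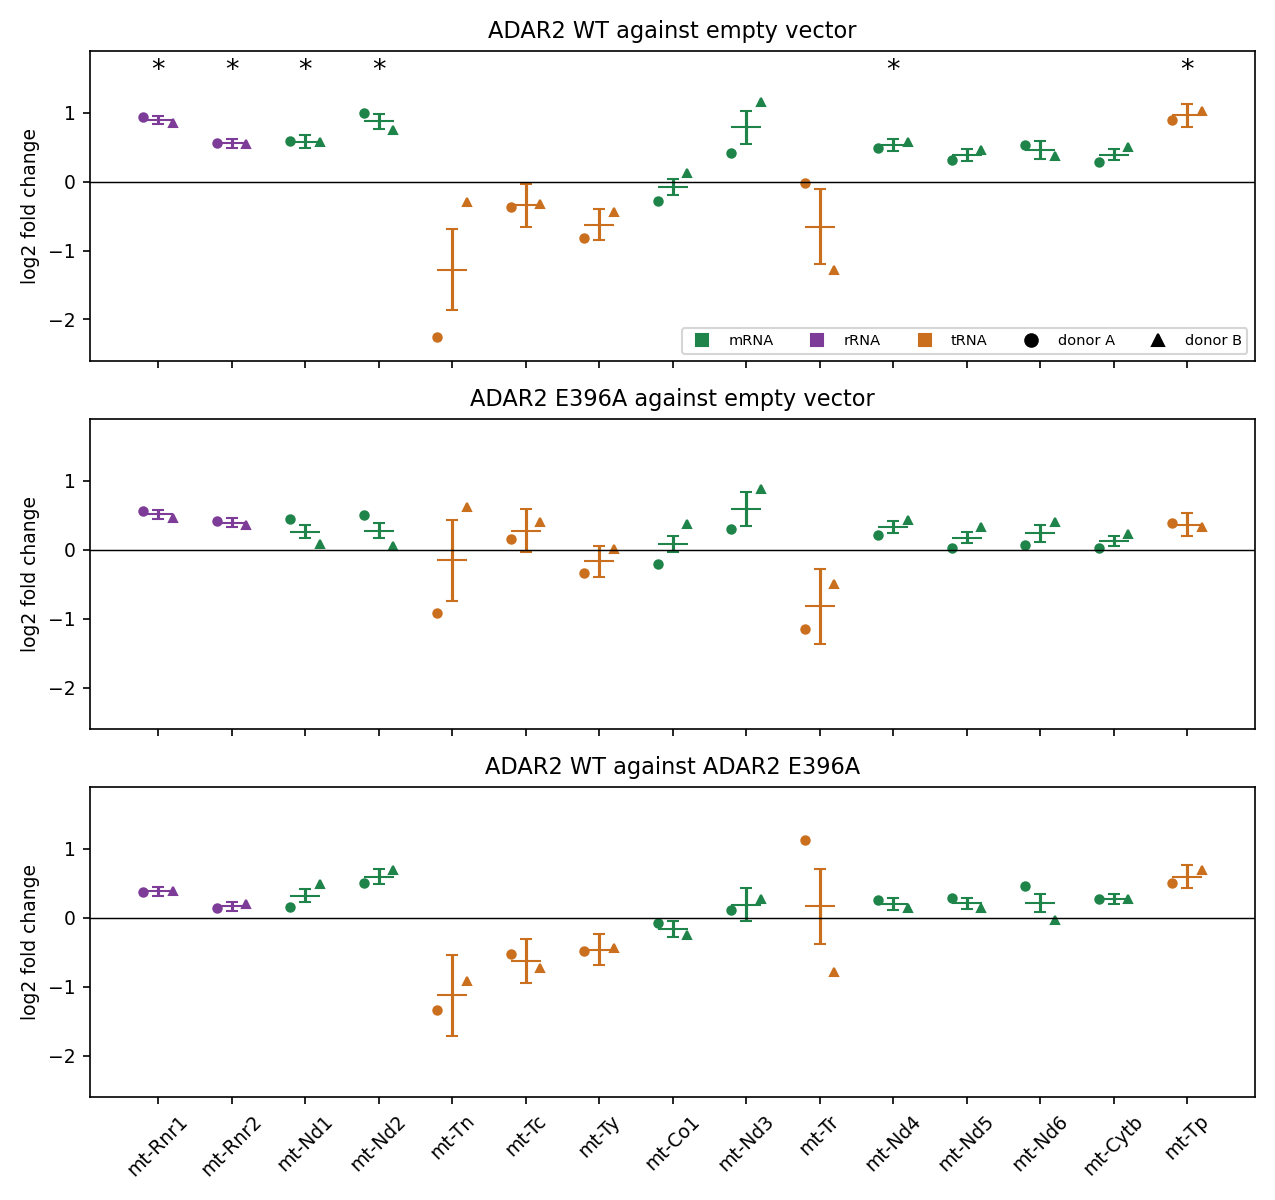
Log2 fold changes of the 15 tested mitochondrial genes in genome order for ADAR2 WT against empty vector (top), ADAR2 E396A against empty vector (middle) and ADAR2 WT against ADAR2 E396A (bottom); bars are limma estimates ± SE, circles and triangles the differences within donors A and B, and asterisks mark an adjusted p under 0.05. Asterisks appear in the top panel alone, over mt-Rnr1, mt-Rnr2, mt-Nd1, mt-Nd2, mt-Nd4 and mt-Tp.

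None of the nuclear genes examined that make, cut and degrade mitochondrial RNA passed the test. In 5 lists holding 49 such genes, all tested, limma passed none in any of the 3 comparisons, in which at most 0.816% of all genes passed, so a count of 0 is near the share of all genes. At an unadjusted p under 0.05 it counted 2 with ADAR2 WT against empty vector, 0 with ADAR2 E396A against empty vector and 1 with ADAR2 WT against ADAR2 E396A, where 14.1%, 3.89% and 12.4% of all genes reached it. The median log2 fold change of the 49 genes with ADAR2 WT was -0.00, and the range ran from -0.86 for Mterf1b to 0.29 for Eral1. Polrmt, the mitochondrial RNA polymerase, had 608 and 636 normalized counts in ADAR2 WT cells, 619 and 615 in ADAR2 E396A cells, and 650 and 600 in empty-vector cells (log2 fold change for ADAR2 WT -0.01, limma adjusted p = 0.98). Tfam, which packages mitochondrial DNA and starts its transcription, was at -0.07 (limma adjusted p = 0.776). The groups overlapped for Polrmt, and neither gene passed.

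Of the tRNA-cutting enzymes, Elac2, which cuts the 3′ ends, had a log2 fold change of -0.03 with ADAR2 WT over empty vector. Of the subunits of mitochondrial RNase P, which cuts the 5′ ends, Trmt10c was at 0.17, Hsd17b10 at -0.28 and Prorp (1110008L16Rik) at -0.09. Hsd17b10 had 1301 and 1042 normalized counts in ADAR2 WT cells, 1445 and 1422 in ADAR2 E396A cells, and 1666 and 1206 in empty-vector cells, which overlapped (limma adjusted p = 0.284). Lrpprc and Slirp, which stabilise mitochondrial mRNAs as a complex, were at -0.10 and 0.22. Pnpt1 and Supv3l1, the nuclease and helicase that degrade mitochondrial RNA, were at 0.19 and 0.05, and none of these passed.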

How the data were processed

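Ribosome-depleted RNA of 6 cultures was sequenced, per the labels' protocols. The submitters' processing notes name STAR 2.6.1a, featureCounts, DESeq2 1.18.1 and the mm10 build. Strand setting, read length and the handling of multiply placed reads are not stated there. The authors deposited a table for each construct. Per the file headers, 4 columns hold normalized counts of libraries (a signal that cannot be negative), and the others hold the authors' mean, log2 fold change, its error, a Wald score, a p-value and its adjusted form.

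Every deposited library value was a whole number of reads over a constant (100% within 0.001 of a read), so reads were recovered, and both libraries present in the 2 tables gave identical reads. Columns are unlabelled: those shared by the tables were assigned to empty vector, the rest by the name of the table. Donor pairing came from the authors' deposited Wald scores, which a DESeq2 refit matched within 8e-04 and 0.0011. With donors crossed it missed by up to 13.8 and 6.08, and with no donor term by 6.67 and 2.03.

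Because the deposited values are normalized, the main test was limma 3.58.1 (R 4.3.3) on log2 of normalized count plus 1, a scale that understates changes of low genes. Reads were scaled by median-of-ratios factors over the 6 libraries and filtered with filterByExpr (minimum count 10), and group and donor were terms. Alternatives were edgeR 4.0.16 and DESeq2 1.42.0, other scalings, filters and pseudocounts, and leaving out each library. Counts were simulated for ADAR2 WT against empty vector (14958 genes, 200 changed in each of 3 runs). Over the 3 runs together, 219 of 300 changes of 1.5-fold (73%) and 286 of 300 of 2-fold (95.3%) were found, beside 46 false calls. The changed genes were drawn above a floor on the mean normalized count, and no donor effect was simulated. The tRNAs mt-Tn, mt-Tc and mt-Tr lie below that floor, so these rates do not cover them. blastn 2.17.0 sought copies at 95% identity over 40 or more bases.

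The rule for names allowed the 37 members, Adarb1, 9 nuclear genes and list genes that pass. Of the members, the tRNAs under the filter are mostly given as counts. Of the marker lists, those of CD4 T cells and Th17 cells, the tested CD8 and NK genes and Ncr1 are named. Mterf1b and Eral1 (ends of a range), Prorp, Cd8a, Cd8b1 and the pseudogenes were named after their values were seen. The members and lists were chosen with earlier results of these data known.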

Additional observations from a re-analysis of the deposited data

How the results depend on the processing

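The fitted log2 fold changes of the 6 called genes kept their direction between tests, filters, pseudocounts and nuclear scaling (mt-Tp, which moved most, ran from 0.93 to 0.97), but some calls changed. Scaled by all 13 mitochondrial mRNAs, which moves the median of all genes to -0.16, mt-Rnr2, mt-Nd1, mt-Nd4 and mt-Tp did not pass (0.40, 0.42, 0.37 and 0.80). For ADAR2 WT against empty vector the main fit called 3 mRNAs, 2 rRNAs and 1 tRNA. The fit with no replicate block (no pairing by donor) called 0, 0 and 0, and limma without a trend called 0, 0 and 0. DESeq2 called 5 mRNAs and 0 tRNAs, and the 4 libraries of the comparison alone gave 7 mRNAs. Over all genes these 4 fits called 2, 0, 210 and 1237, against 122 in the main fit. With 1 library left out, which of the 6 called genes passed depended on the library. Their log2 fold changes of ADAR2 WT over empty vector stayed positive in each of these fits. The lowest were 0.849 for mt-Rnr1, 0.539 for mt-Rnr2 and 0.488 for mt-Nd1. For mt-Nd2, mt-Nd4 and mt-Tp they were 0.699, 0.454 and 0.887. For ADAR2 E396A against empty vector, where the main counts were 0, DESeq2 called 2 rRNAs and the fit without a filter 1 rRNA, and leaving out 1 library gave 0 to 2 mRNAs and 0 to 2 rRNAs, in fits that called 1 to 127 of all genes. For ADAR2 WT against ADAR2 E396A, also 0 in the main fit, DESeq2, the fit without a filter and the 4 libraries alone each gave 1 mRNA and 1 rRNA. They were mt-Nd2 and mt-Rnr1, both higher with ADAR2 WT. Over all genes those fits called 111, 102 and 194, against 10 in the main fit. Leaving out 1 library gave log2 fold changes from 0.44 to 0.76 for mt-Nd2 and from 0.35 to 0.41 for mt-Rnr1. The cause of the differences in calls between fits was not tested.

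Some values that had not passed turned sign. With 1 library left out, the log2 fold changes of ADAR2 WT over empty vector ran from -0.32 to 0.17 for mt-Co1 and from -1.45 to 0.14 for mt-Tr. Those of ADAR2 E396A over empty vector ran from -1.02 to 0.72 for mt-Tn, from -0.35 to 0.013 for mt-Ty and from -0.16 to 0.33 for mt-Co1. Those of ADAR2 WT over ADAR2 E396A ran from -0.35 to 0.018 for mt-Co1, from -0.033 to 0.42 for mt-Nd3 and from -0.62 to 0.97 for mt-Tr. Scaled by the mitochondrial mRNAs other than mt-Co1, which moves the median of all genes to -0.50, -0.22 and -0.29 in the 3 comparisons, signs turned for ADAR2 WT over empty vector in mt-Nd5 (-0.11), mt-Nd6 (-0.043) and mt-Cytb (-0.11). For ADAR2 E396A over empty vector they turned in mt-Co1 (-0.12), mt-Nd5 (-0.032) and mt-Cytb (-0.083), and by all 13 mRNAs in mt-Co1 (-0.042) and mt-Cytb (-0.0040). For ADAR2 WT over ADAR2 E396A they turned in mt-Rnr2 (-0.12), mt-Nd3 (-0.095), mt-Tr (-0.088), mt-Nd4 (-0.091), mt-Nd5 (-0.082), mt-Nd6 (-0.073) and mt-Cytb (-0.023). These scalings set other mitochondrial mRNAs as the zero.

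Mean shares moved with the denominator. Groups are given here only where the mean moved by at least the SD of the group's 2 libraries. Of nuclear protein-coding reads, mitochondrial mRNAs were 0.185% with ADAR2 WT and 0.183% with ADAR2 E396A, rRNAs 0.340% with ADAR2 WT and 0.226% with empty vector, and tRNAs 0.00159% with ADAR2 WT and 0.00151% with ADAR2 E396A. Of reads outside ribosomal RNA genes, mRNAs were 0.182% and 0.180% with ADAR2 WT and ADAR2 E396A, tRNAs 0.00156% and 0.00148%, and rRNAs 0.222% with empty vector. Without mt-Co1, mRNAs were 0.0767%, 0.0631% and 0.0536% with ADAR2 WT, ADAR2 E396A and empty vector, and the rRNA to mRNA ratio was 3.96, 4.26 and 3.71. Per length the ratio was 8.24, 7.43 and 6.11. With 2 libraries per group, depth limits the tRNAs, and the placement of reads from copied genes such as the 5 low mRNAs cannot be checked from these tables.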
